A study of Homo sapiens with 16 samples.

Results

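The genes described here are 10 members of the WNT signalling system out of 40663 gene symbols measured by bulk RNA-seq in Ccd18-Co, an established line of human colon fibroblasts. They were taken by symbol: the ligands WNT5A, WNT2 and WNT2B, the R-spondin RSPO3, the extracellular antagonists SFRP1, SFRP2, DKK1 and DKK3, the surface antagonist APCDD1, and AXIN2, an intracellular feedback gene. APCDD1 was chosen by its measured level, which was low after belinostat in an earlier reading of these data, so its belinostat comparisons are given as a description with no test. RSPO3 and SFRP2 lay at or under 5 estimated counts in every library, and the other 8 genes passed the filter on low values in each of the 6 comparisons.

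The 16 libraries formed 4 groups of 4. Unstimulated cells received no cytokine and the carrier DMSO. The other groups received 3 pulses of a cytokine mix, each of 72 h in serum-free medium followed by 96 h of recovery. In the mix, IL-17A, OSM and TNF were used at 10 ng/ml, and IL-1B was used at 0.1 ng/ml. After 1 week of rest, these cells were given DMSO (called vehicle below), 250 nM belinostat or 10 µM GSK-J4 for 5 days, and RNA was taken 2 weeks after that treatment. These doses and group sizes are those of the sample labels. The paper gives a higher belinostat dose for its assays, a lower GSK-J4 dose for a protein assay and fewer RNA-seq replicates per group. Belinostat inhibits histone deacetylases, and GSK-J4 inhibits demethylases of histone H3 lysine 27. All cultures came from 1 cell line with no epithelium, immune cells or matrix around it. The labels do not tell whether the libraries of a group came from independently grown cultures, so p-values measure only the spread between these samples, which may be technical.

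WNT ligands are secreted lipid-modified glycoproteins that bind Frizzled receptors. With the co-receptors LRP5 and LRP6 they stabilise beta-catenin, which acts in the nucleus with TCF/LEF factors, and some of them, WNT5A in particular, also signal without beta-catenin. SFRP proteins bind the ligands themselves, DKK1 binds LRP5 and LRP6, APCDD1 is a membrane glycoprotein that holds back the pathway at the cell surface, and R-spondins amplify it by keeping Frizzled receptors at the membrane. In the colon, fibroblasts around the crypts supply WNT ligands, R-spondins and antagonists to the epithelial stem cells.

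Library depth ran from 14.42 to 19.48 M estimated counts, and the belinostat libraries, at 14.42 to 18.26 M, included the shallowest. Values below are normalized counts, the estimated counts divided by the DESeq2 size factor of the library. Belinostat replicate 17 stood apart from the other belinostat libraries on the second principal component, at -12.98 against -1.42 to 0.78, and several results below are given with and without it. All 9 fibroblast markers listed were detected. The epithelial marker KRT20, the leukocyte markers CD3E and ITGAM and the glial marker SOX10 were at 0 in every library. Other markers were detected at low levels. A mean under 5 normalized counts was found for 5 of 6 epithelial, 4 of 5 leukocyte, 3 of 4 endothelial and 3 of 3 glial markers. The epithelial CDH1 had group means of 4.706 to 10.65 and the endothelial VWF of 19.7 to 31.78. The leukocyte marker CD14 was present, with means of 71.81 in unstimulated, 140.9 in vehicle, 195.7 in belinostat and 105.7 in GSK-J4 libraries. It was called higher with belinostat than in unstimulated cells (log2 fold change 1.45, DESeq2 adjusted p = 0.00109) and in no other comparison. The summed level of 6 smooth muscle markers was 33460 to 39910 in vehicle, 26160 to 31870 in belinostat and 52370 to 54100 in GSK-J4 libraries, and was 30100 to 44220 in unstimulated ones. That sum moved with both compounds, but its markers did not all fall with belinostat. Against vehicle, ACTA2 (log2 fold change -0.50) and ACTG2 (-0.63) were called lower. CNN1 (-0.14), MYH11 (-0.22) and MYLK (0.04) were not called, and DES was too low to test. The part of CD14 and of this sum in the results on the WNT genes was not tested. In bulk RNA, fewer cells that express a gene and less RNA per cell cannot be told apart.

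The promoters of APCDD1, DKK1 and WNT5A are shown because these 3 genes share a pathway and their levels followed different patterns over the groups. Promoters are RefSeq windows of 300 bases on GRCh38.p14, from 250 bases before the start to 50 bases from it, written 5′ to 3′ along the gene. Such windows were used for 7 of the 10 genes, and those of SFRP1, DKK3 and AXIN2 were not used here. Capitals mark matches on either strand to 5 motifs: the TCF/LEF letters CTTTGAA or CTTTGAT, the AP-1 letters TGANTCA, the GC box GGGCGG, the TATA box TATAAA and the CCAAT box. No marked match overlaps another. The WNT5A window belongs to 1 of its 2 starts in the table.
APCDD1 promoter, chr18:10454385-10454684, plus strand: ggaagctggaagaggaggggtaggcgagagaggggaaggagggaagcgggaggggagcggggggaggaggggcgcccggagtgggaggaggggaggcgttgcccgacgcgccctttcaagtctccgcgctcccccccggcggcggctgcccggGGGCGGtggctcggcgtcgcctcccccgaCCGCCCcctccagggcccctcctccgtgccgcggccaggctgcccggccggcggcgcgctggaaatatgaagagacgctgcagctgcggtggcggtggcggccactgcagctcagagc
DKK1 promoter, chr10:52314031-52314330, plus strand: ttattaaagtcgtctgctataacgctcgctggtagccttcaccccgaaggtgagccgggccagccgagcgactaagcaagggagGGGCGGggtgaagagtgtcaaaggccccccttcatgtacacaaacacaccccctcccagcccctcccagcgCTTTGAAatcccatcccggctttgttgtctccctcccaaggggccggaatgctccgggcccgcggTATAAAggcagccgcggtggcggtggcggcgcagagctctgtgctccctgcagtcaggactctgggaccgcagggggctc
WNT5A promoter, chr3:55487257-55487556, minus strand: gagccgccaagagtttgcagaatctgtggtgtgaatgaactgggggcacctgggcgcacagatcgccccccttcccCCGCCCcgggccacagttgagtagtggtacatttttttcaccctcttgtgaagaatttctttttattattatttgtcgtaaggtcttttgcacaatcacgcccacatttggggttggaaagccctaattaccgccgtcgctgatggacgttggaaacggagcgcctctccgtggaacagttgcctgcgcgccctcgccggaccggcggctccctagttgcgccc

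The APCDD1 window held 33 CpG dinucleotides, 76.0% G or C and 2 GC boxes, and none of the TCF/LEF, AP-1, TATA or CCAAT letters. The DKK1 window held 20 CpG dinucleotides, 63.7% G or C, TCF/LEF letters that begin 95 bases before the start (position -95), a TATA box at -30 and 1 GC box. The WNT5A window shown held 21 CpG dinucleotides, 56.3% G or C and 1 GC box. Over the 35116 promoters of the same length, the median was 14 CpG dinucleotides and 58.7% G or C. The GC box was found in 45.0% of these promoters, CCAAT in 34.6%, TATA letters in 11.5%, AP-1 letters in 7.71% and TCF/LEF letters in 6.86%. Of the 7 genes whose windows were used, DKK1 was the one with TCF/LEF letters, and nothing is said here of SFRP1, DKK3 and AXIN2. These matches describe the letters of each window and no binding was measured.

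The first comparison, vehicle against unstimulated, asked which genes still differed weeks after the cytokine pulses. APCDD1 and WNT5A were higher in the cytokine-pulsed cells, and no member was called lower. Of the 8 members tested, DESeq2 called 2 at an adjusted p under 0.05, against 1.74% of all 16240 genes tested (1.1% higher and 0.634% lower). APCDD1 is 1 of these 2, and its choice used the same vehicle libraries, so nothing is read from its part in the count. The median log2 fold change was -0.17 over the members and -0.0048 over all genes tested.

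WNT5A (ENSG00000114251.15, chr3:55465715-55490539, minus strand, GRCh38 with GENCODE v44), the ligand best known for signalling without beta-catenin, was at 3848, 3663, 3674 and 3810 normalized counts in the unstimulated libraries and at 4612, 4826, 5045 and 6432 in the vehicle libraries. It was at 4777, 4534, 4093 and 4494 with belinostat and at 4876, 4607, 4783 and 5240 with GSK-J4. Every cytokine-pulsed library, whatever the compound, lay above every unstimulated one, and vehicle replicate 16 was the highest of all. The mean was 3749 ± 94.1 (SD, n = 4) in unstimulated and 5229 ± 821 (SD, n = 4) in vehicle cells. WNT5A was 1.39-fold higher in vehicle than in unstimulated cells (log2 fold change 0.48, SE 0.09, DESeq2 adjusted p = 7.33e-06). It was also called with GSK-J4 against unstimulated cells (log2 fold change 0.38, SE 0.09, DESeq2 adjusted p = 0.000555). With belinostat against unstimulated cells the log2 fold change was 0.26 (DESeq2 adjusted p = 0.0332), a call that was lost in 8 of 12 alternative fits.

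WNT5A did not pass the test between either compound and vehicle. The log2 fold change was -0.22 for belinostat (95% interval -0.39 to -0.06, DESeq2 adjusted p = 0.105) and -0.10 for GSK-J4 (95% interval -0.27 to 0.07, DESeq2 adjusted p = 0.798). Without belinostat replicate 17 the belinostat value was -0.26 (DESeq2 adjusted p = 0.049), and without vehicle replicate 13 it was -0.28 (DESeq2 adjusted p = 0.0319). The call for belinostat against vehicle therefore turned on single libraries.

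WNT2 (ENSG00000105989.10, chr7:117275451-117323152, minus strand), a ligand of the beta-catenin branch made by fibroblasts, was at 1298, 1541, 1451 and 1565 normalized counts in unstimulated and at 1278, 1387, 1292 and 1117 in vehicle libraries. It was at 463, 1075, 1146 and 954.2 with belinostat and at 1366, 1009, 1090 and 1159 with GSK-J4. Belinostat replicate 17 was the lowest of the 16 libraries, and replicate 20, at 954.2, also lay below every vehicle and GSK-J4 library. Replicate 18, at 1075, lay below the vehicle range and within that of GSK-J4, and replicate 19, at 1146, lay within both. Vehicle and unstimulated libraries overlapped (log2 fold change -0.21, DESeq2 adjusted p = 0.928). Belinostat against vehicle gave a log2 fold change of -0.48 (95% interval -0.91 to -0.06, DESeq2 adjusted p = 0.219), or -0.26 without replicate 17 and -0.61 without belinostat replicate 19, where it was called (DESeq2 adjusted p = 0.0276). WNT2 was lower with belinostat than in unstimulated cells (log2 fold change -0.69, SE 0.22, DESeq2 adjusted p = 0.0201), and without replicate 17 the value was -0.47 (DESeq2 adjusted p = 0.000212). That call was lost without unstimulated replicate 2 or 4 and in a fit of these 2 groups alone (DESeq2 adjusted p = 0.0841, 0.0757 and 0.158). GSK-J4 gave -0.13 against vehicle (95% interval -0.56 to 0.29, DESeq2 adjusted p = 0.931) and -0.34 against unstimulated cells (DESeq2 adjusted p = 0.507, or 0.0135 in a fit of these 2 groups alone, where it was called).

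WNT2B (ENSG00000134245.18, chr1:112466541-112530165, plus strand), a related ligand, varied little. It was at 3722, 4091, 4124 and 4192 normalized counts in unstimulated, 3640, 3400, 3447 and 3402 in vehicle, 2720, 3512, 3548 and 3481 in belinostat and 3615, 4023, 3736 and 3657 in GSK-J4 libraries. All vehicle libraries lay below all unstimulated ones, with a small difference (log2 fold change -0.22, 95% interval -0.36 to -0.07, DESeq2 adjusted p = 0.134). A fit of these 2 groups alone gave the same -0.22 and called it (DESeq2 adjusted p = 0.00752). Belinostat against vehicle was -0.07 (95% interval -0.21 to 0.08, DESeq2 adjusted p = 0.777) and turned to 0.02 without replicate 17, and GSK-J4 against vehicle was 0.11 (95% interval -0.03 to 0.26, DESeq2 adjusted p = 0.684). All belinostat libraries lay below all GSK-J4 ones, though this difference was not called (log2 fold change -0.18, 95% interval -0.327 to -0.035, DESeq2 adjusted p = 0.0957). Against unstimulated cells WNT2B was lower with belinostat (log2 fold change -0.28, SE 0.07, DESeq2 adjusted p = 0.00299) and not called with GSK-J4 (-0.10, DESeq2 adjusted p = 0.6).

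RSPO3 (ENSG00000146374.14, chr6:127118671-127199481, plus strand), an R-spondin of crypt-supporting stroma, was barely detected. Its estimated counts were 0 in all unstimulated and belinostat libraries, 1, 0, 1 and 0 in vehicle and 0, 1, 4 and 0 in GSK-J4 libraries. SFRP2 (ENSG00000145423.5, chr4:153780591-153789083, minus strand), a secreted decoy for WNT ligands, had counts of 0, 0, 1 and 0 in unstimulated, 0, 5, 0 and 0 in vehicle, 0 in every belinostat and 2, 0, 0 and 3 in GSK-J4 libraries. At this depth no difference between groups was detectable for either gene, since a count of 0 allows up to 3 counts, or 0.154 to 0.208 counts per M. These floors cover counting error only, whereas the 95% intervals of fold changes come from DESeq2 standard errors, which include the spread between libraries.

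**Figure D1:**
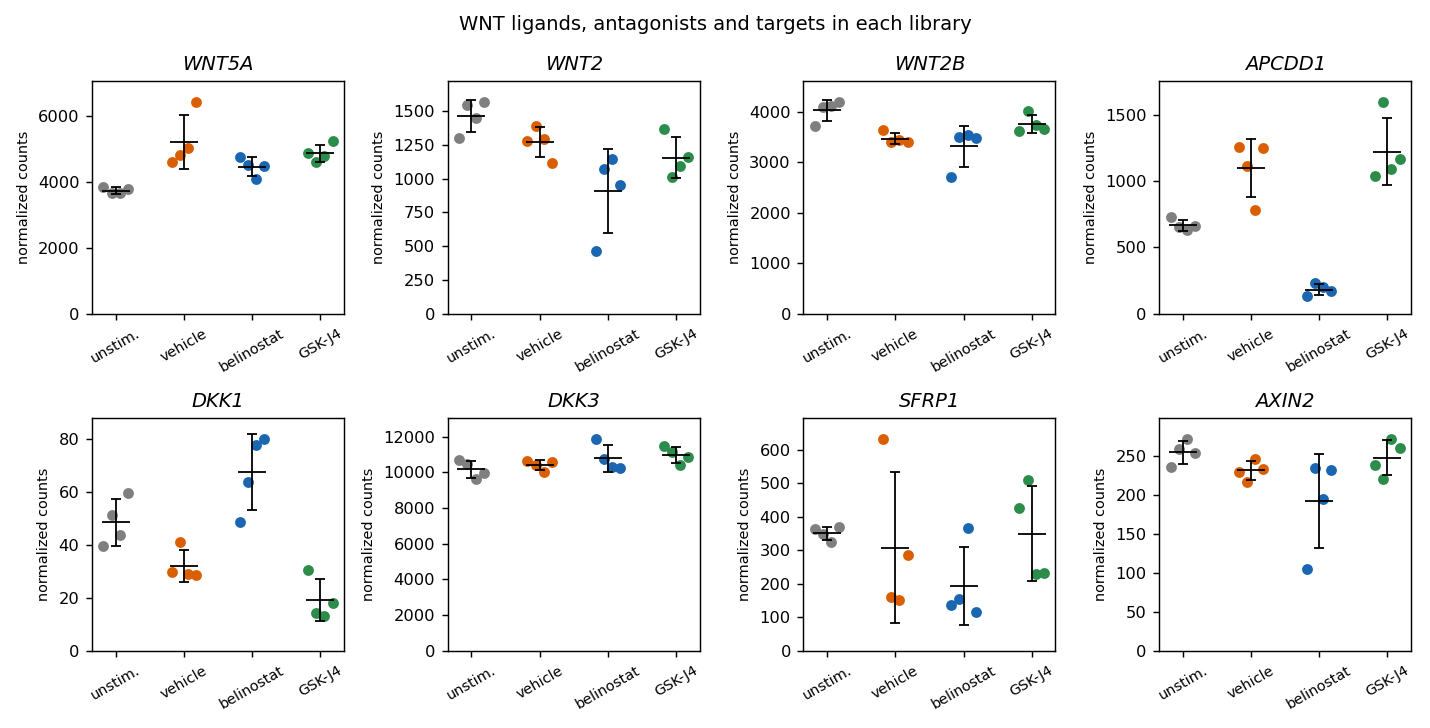
Normalized counts (vertical axis of each panel, from 0) of the 8 members with more than a trace of counts in each of the 16 libraries (points), by group on the horizontal axis, with the mean and SD of each group as bars (n = 4). APCDD1 lies at 133.7 to 229.6 in the belinostat libraries and at 634.7 or more in all others, and the DKK1 mean is lowest with GSK-J4 and highest with belinostat.

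APCDD1 (ENSG00000154856.13, chr18:10454635-10489949, plus strand) was at 726.7, 651.7, 634.7 and 659 normalized counts in the unstimulated libraries and at 1253, 1112, 782.4 and 1246 in vehicle. It was at 133.7, 229.6, 201.7 and 170.3 with belinostat and at 1036, 1593, 1090 and 1167 with GSK-J4. The belinostat libraries were the lowest of the 16 and all vehicle libraries lay above all unstimulated ones, although vehicle replicate 15 was close to them. Vehicle cells held 1.64-fold more APCDD1 than unstimulated cells (1098 ± 220 against 668 ± 40.4, SD, n = 4 each). Its log2 fold change was 0.72 (SE 0.16, DESeq2 adjusted p = 0.00162) and was called in all 12 alternative fits, with values from 0.65 to 0.85. The fall with belinostat for which APCDD1 was chosen is measured from the same vehicle libraries. A high vehicle value favours both that choice and this call, so the call is not independent of the choice. GSK-J4 against unstimulated cells gave 0.87 (SE 0.16, DESeq2 adjusted p = 1.04e-05). The pulsed cells thus held more APCDD1 than unstimulated cells when they later received DMSO or GSK-J4.

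With belinostat, the value for which APCDD1 was chosen, its mean was 183.8 ± 41.3 (SD, n = 4). That is 0.167 times the vehicle mean, a log2 fold change of -2.58 with SE 0.17. The range over the 12 alternative fits was -2.72 to -2.46, and -2.46 was the value without replicate 17. Against GSK-J4 the log2 fold change was -2.74 (SE 0.17), and against unstimulated cells, which had seen neither cytokine nor compound, it was -1.87 (SE 0.17). Among the 11738 genes with a mean of at least 50 normalized counts, the chemokine CCL11 at -5.92 was the one lower than APCDD1 in belinostat against vehicle, and the chemokine CCL2 followed at -2.29. This place is a description only, since APCDD1 was chosen from the same comparison. GSK-J4 against vehicle left APCDD1 at a log2 fold change of 0.15 (95% interval -0.17 to 0.47, DESeq2 adjusted p = 0.868).

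The 5 genes whose levels over the 16 libraries were most like those of APCDD1, among 11740 genes compared by Pearson r of log2(normalized count + 1), were LRRN4CL (r = 0.978), NKD2 (0.967), CCL11 (0.965), PLAT (0.956) and ASPH (0.954). These correlations are a description, since the libraries share 4 groups. CCL11, the eotaxin-1 chemokine, had a mean of 225.7 in vehicle and 3.826 in belinostat libraries. PLAT, the tissue plasminogen activator, had means of 11620 and 5866, and NKD2, an intracellular feedback inhibitor of WNT signalling, 1410 and 883.6.

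SFRP1 (ENSG00000104332.12, chr8:41261962-41309473, minus strand), another secreted decoy for WNT ligands, was at 362.9, 347.4, 325.8 and 369.1 normalized counts in unstimulated and at 632.9, 161, 150 and 286.8 in vehicle libraries. It was at 135.6, 155.1, 367.9 and 114.2 with belinostat and at 425.1, 510.9, 227.6 and 232.7 with GSK-J4. The unstimulated libraries lay close together, with a coefficient of variation of 5.49%, whereas the vehicle, belinostat and GSK-J4 libraries scattered at 73.3%, 60.9% and 40.6%. All groups overlapped, and no comparison was called. Belinostat against vehicle was at -0.67 (95% interval -1.63 to 0.28, DESeq2 adjusted p = 0.582), and it ran from -1.19 without belinostat replicate 19 to -0.05 without vehicle replicate 13, with no call in any alternative fit. Vehicle against unstimulated gave -0.19 (DESeq2 adjusted p = 0.989) and GSK-J4 against vehicle gave 0.18 (95% interval -0.77 to 1.13, DESeq2 adjusted p = 0.962). Belinostat replicate 19 decided 2 calls: without it, SFRP1 was lower with belinostat than with GSK-J4 (-1.37, DESeq2 adjusted p = 0.0331) and than in unstimulated cells (-1.38, DESeq2 adjusted p = 0.0378).

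DKK1 (ENSG00000107984.10, chr10:52314281-52318042, plus strand), whose promoter is printed above, was at 39.57, 51.06, 43.5 and 59.56 normalized counts in unstimulated and at 29.51, 41.2, 28.88 and 28.58 in vehicle libraries. It was at 48.69, 63.5, 77.68 and 79.95 with belinostat and at 30.51, 14.33, 13.21 and 17.82 with GSK-J4. All belinostat libraries lay above all vehicle and all GSK-J4 libraries, and GSK-J4 replicate 21 overlapped the vehicle range. DKK1 was 2.1-fold higher with belinostat than with vehicle (67.46 ± 14.5 against 32.04 ± 6.12, SD, n = 4 each). Its log2 fold change was 1.07 (SE 0.25, DESeq2 adjusted p = 0.00102), with values of 0.98 to 1.22 and a call in all 12 alternative fits. Belinostat against GSK-J4 was larger still at 3.55-fold (log2 fold change 1.83, SE 0.28, DESeq2 adjusted p = 3.8e-09).

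GSK-J4 against vehicle gave DKK1 a log2 fold change of -0.75 (95% interval -1.33 to -0.18, DESeq2 adjusted p = 0.229), which was not called in any of the 12 alternative fits. It was 0.392 times as high with GSK-J4 as in unstimulated cells (log2 fold change -1.35, SE 0.28, DESeq2 adjusted p = 0.000124). Vehicle against unstimulated was -0.60 (95% interval -1.10 to -0.09, DESeq2 adjusted p = 0.377) and belinostat against unstimulated was 0.48 (95% interval -0.0017 to 0.96, DESeq2 adjusted p = 0.238). In order of mean, DKK1 stood at 18.97 with GSK-J4, 32.04 with vehicle, 48.42 in unstimulated and 67.46 with belinostat, and no neighbours in that order differed past the threshold.

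DKK3 (ENSG00000050165.19, chr11:11956207-12009769, minus strand), a secreted relative of DKK1, was the most abundant member per kilobase of its representative transcript and the steadiest. Its group means were 10180 ± 475 in unstimulated, 10420 ± 278 in vehicle, 10800 ± 762 in belinostat and 10980 ± 436 in GSK-J4 libraries (SD, n = 4 each). Divided by transcript length these are 4030 to 4350 normalized counts per kilobase, against 10.5 to 37.4 for DKK1. No comparison of DKK3 was called, and the largest log2 fold change was 0.11 (GSK-J4 against unstimulated, 95% interval 0.0055 to 0.21, DESeq2 adjusted p = 0.291).

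AXIN2 (ENSG00000168646.14, chr17:65528563-65561648, minus strand), a scaffold of the complex that degrades beta-catenin and a widely used readout of beta-catenin signalling, was at 235.5, 258.3, 270.8 and 252.9 normalized counts in unstimulated and at 228.4, 216.6, 245 and 233.3 in vehicle libraries. It was at 105, 234.4, 194.2 and 231.5 with belinostat and at 238, 220.1, 271.3 and 259.9 with GSK-J4. Belinostat replicate 17 was the lowest library. All belinostat libraries lay below all unstimulated ones, by a narrow margin in 2 of them, the other pairs of groups overlapped, and none of the 6 comparisons was called. Belinostat against vehicle was -0.28 (95% interval -0.61 to 0.06, DESeq2 adjusted p = 0.484), or -0.07 without replicate 17. Belinostat against unstimulated was -0.42 (DESeq2 adjusted p = 0.111), and without replicate 17 it was -0.21 (DESeq2 adjusted p = 0.247). It was called at -0.53 without belinostat replicate 18 and at -0.52 without replicate 20. Of its 31-base words, 25.0% occur in transcripts of another gene, 24.9% in those of ENSG00000266076, which the table does not list, so reads could be split or shared between them. For APCDD1 that share was 3.26%.

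In the comparison of belinostat with vehicle, DESeq2 called 6.26% of all 14209 genes tested, 3.12% higher and 3.13% lower. Among the members DKK1 was called higher and none was called lower apart from APCDD1, whose choice used this comparison, and nothing is read from its count. GSK-J4 against vehicle called none of the 8 members, against 1.92% of 13197 genes tested by DESeq2 (1.1% higher and 0.818% lower). At an unadjusted p under 0.05, 1 member, DKK1, was counted, and edgeR called 0. Between the compounds, belinostat against GSK-J4 called DKK1 higher, APCDD1 again being left without a test, with 12.2% of all 14717 genes called (6.18% higher and 6.01% lower). Belinostat against unstimulated cells called WNT5A higher and WNT2 and WNT2B lower, APCDD1 left aside in the same way (10.3% of 14209 genes called, 5.51% higher and 4.77% lower), and GSK-J4 against unstimulated cells called APCDD1 and WNT5A higher and DKK1 lower (5.55% of 16747 genes called, 3.18% higher and 2.37% lower). Vehicle against unstimulated, belinostat against vehicle and GSK-J4 against vehicle share the vehicle libraries. The comparisons with unstimulated cells share the unstimulated libraries, and the comparisons of each compound share the libraries of that compound. The comparisons are therefore not independent of one another.

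**Figure D2:**
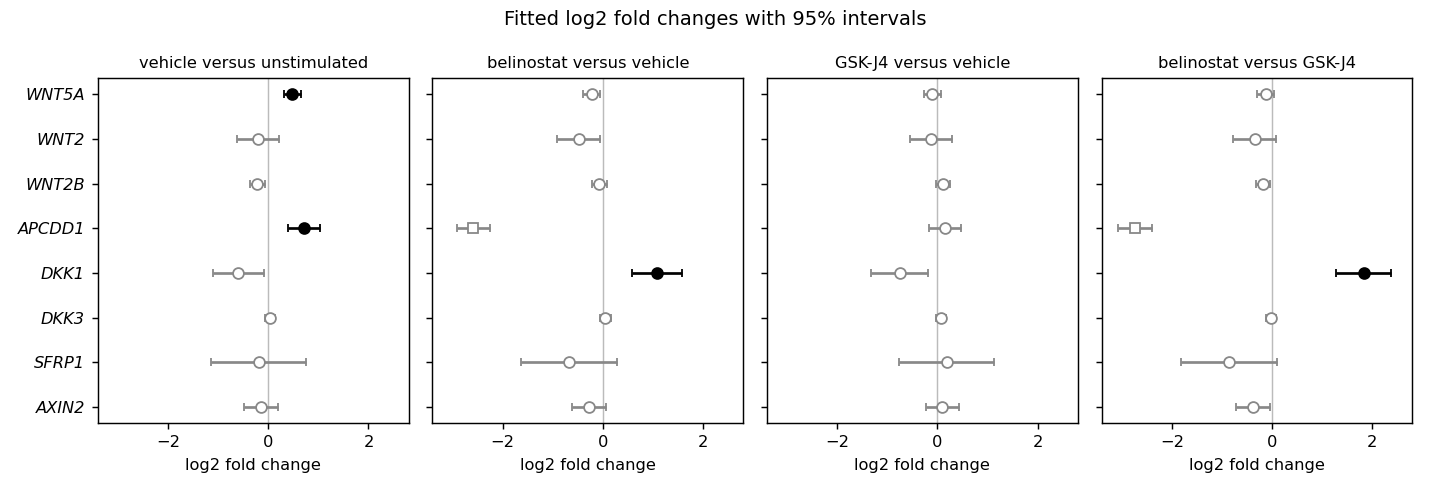
Log2 fold change (horizontal axis) of the 8 members tested, in 4 of the 6 comparisons, with bars that span the 95% interval. Filled black points passed the DESeq2 threshold, open grey points did not, and open squares are the belinostat values of APCDD1, which have no test. APCDD1 reaches -2.58 with belinostat against vehicle, and DKK1 lies at 1.07 there and at 1.83 against GSK-J4.

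The plot of the 4 belinostat libraries relative to the vehicle mean sets the members side by side library by library. In replicate 17, WNT2 and AXIN2 were at their lowest, whereas APCDD1 was below and DKK1 above every vehicle library in all 4 of them.

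**Figure D3:**
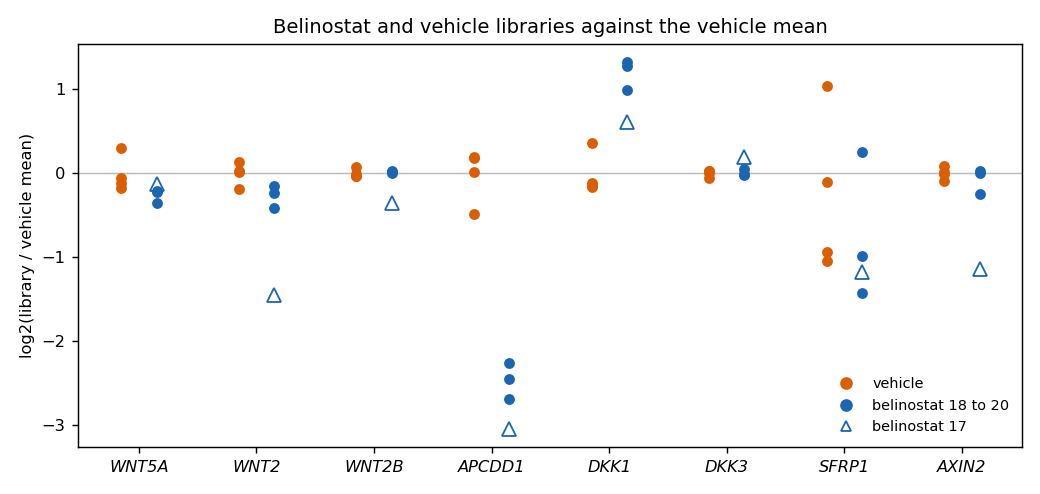
Log2 ratio (vertical axis) of each vehicle and belinostat library to the mean of the vehicle libraries, which is the line at 0, for the 8 members tested (horizontal axis). Each library is 1 point, and belinostat replicate 17 is the open triangle. APCDD1 is far below 0 and DKK1 above 0 in all 4 libraries, while replicate 17 is the low point for WNT2, WNT2B and AXIN2.

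The rest of the pathway was read from a list of 78 other genes, all of them in the table. In vehicle against unstimulated cells, 57 were tested, of which 4 were called higher and 1 lower, against 1.74% of all genes tested (1.1% higher and 0.634% lower). WNT4, another ligand, rose from 30.11 ± 6.63 to 90.66 ± 28.5 (SD, n = 4 each; log2 fold change 1.60, SE 0.26, DESeq2 adjusted p = 4.16e-07). KREMEN1, a receptor for DKK1 and its relatives, rose by 0.60 (DESeq2 adjusted p = 9.26e-14) and NKD2 by 0.28 (DESeq2 adjusted p = 0.00433, or 0.0571 without vehicle replicate 16). LGR4, an R-spondin receptor, rose by 0.28 and ROR2, a receptor for WNT5A, fell by 0.16 (DESeq2 adjusted p = 0.0227 each), and these 2 calls were lost in 7 and 9 of 12 alternative fits.

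In belinostat against vehicle, 51 of the list were tested, of which 5 were called higher and 7 lower, against 6.26% of all genes tested (3.12% higher and 3.13% lower). Without replicate 17 the calls on the list numbered 15. The share of all genes called in that fit is not given here, so nothing about the list is read from this number. WNT4, KREMEN1 and NKD2, higher after the pulses in vehicle cells, were lower with belinostat. Both comparisons use the same vehicle libraries, so a high vehicle value moves them in opposite directions and they are not independent. WNT4 was at 83.76, 60.37, 89.42 and 129.1 normalized counts in vehicle and at 58.24, 50.06, 35.6 and 42.57 with belinostat, which do not overlap (log2 fold change -0.96, SE 0.25, DESeq2 adjusted p = 0.00389). Without vehicle replicate 16 its value was -0.74 (DESeq2 adjusted p = 0.0504). NKD2 was at 1442, 1285, 1381 and 1530 in vehicle and at 803.9, 931.7, 923.5 and 875.3 with belinostat, which is also below the unstimulated range of 1140 to 1177 (log2 fold change -0.68, SE 0.07, DESeq2 adjusted p = 1.21e-19). KREMEN1 was at 938.1 to 1090 in vehicle and at 651 to 740.1 with belinostat (log2 fold change -0.53, SE 0.07, DESeq2 adjusted p = 5.69e-11). Both ligands called in this comparison were therefore lower, since WNT5B fell as well (-0.49, DESeq2 adjusted p = 6.87e-05).

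Other genes lower with belinostat were the R-spondin RSPO1 (log2 fold change -0.48, DESeq2 adjusted p = 0.00207), the receptor TNFRSF19, known as a beta-catenin target (-0.57, DESeq2 adjusted p = 5.12e-07), and WLS, which carries WNT ligands to the cell surface (-0.24). Higher were TRABD2A, a membrane protease that inactivates WNT ligands (1.06, DESeq2 adjusted p = 0.004), and the Frizzled receptors FZD8 (0.54, DESeq2 adjusted p = 0.000742), FZD4 (0.43) and FZD6 (0.32), with the polarity gene PRICKLE2 (0.16). TRABD2A stood at 45.46 ± 10.3 with belinostat against 21.87 ± 4.72 in vehicle cells (SD, n = 4 each). The transcription factors TCF7, TCF7L1, TCF7L2 and LEF1 were not called, with log2 fold changes of -0.15 to 0.10, and CTNNB1, which encodes beta-catenin, was at -0.03 (DESeq2 adjusted p = 0.879).

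In GSK-J4 against vehicle, 48 of the list were tested and NKD1, the relative of NKD2, was the 1 call, against 1.92% of all genes tested. NKD1 was at 90.42, 103.5, 97.8 and 125.4 normalized counts in vehicle and at 181, 136.2, 155.4 and 165.6 with GSK-J4, which do not overlap (log2 fold change 0.61, SE 0.15, DESeq2 adjusted p = 0.00719). With edgeR the call was lost (adjusted p = 0.0511), as it was when GSK-J4 replicate 21 or vehicle replicate 13 or 15 was left out (DESeq2 adjusted p up to 0.0735).

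Between the compounds, belinostat against GSK-J4, 52 of the list were tested, of which 8 were called higher and 9 lower, against 12.2% of all genes tested (6.18% higher and 6.01% lower). Without replicate 17 the calls numbered 22, again with no share of all genes beside it, so nothing is read from that number. Higher with belinostat were TRABD2A (log2 fold change 1.22, DESeq2 adjusted p = 0.00039), FZD8 (0.87, DESeq2 adjusted p = 1.38e-09) and FZD4 (0.55, DESeq2 adjusted p = 4.96e-10). Lower were TNFRSF19 (-0.82, DESeq2 adjusted p = 2.57e-15), NKD1 (-0.77, DESeq2 adjusted p = 3.06e-05), KREMEN1 (-0.69, DESeq2 adjusted p = 1.83e-19) and NKD2 (-0.63, DESeq2 adjusted p = 2.69e-17). The ligand WNT9A was lower too (-0.66, DESeq2 adjusted p = 0.0354), a call lost in 6 of 12 alternative fits, among them the one without belinostat replicate 17 (-0.46, DESeq2 adjusted p = 0.159). The feedback inhibitors NKD1 and NKD2 were thus both lower with belinostat than with GSK-J4.

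**Figure D4:**
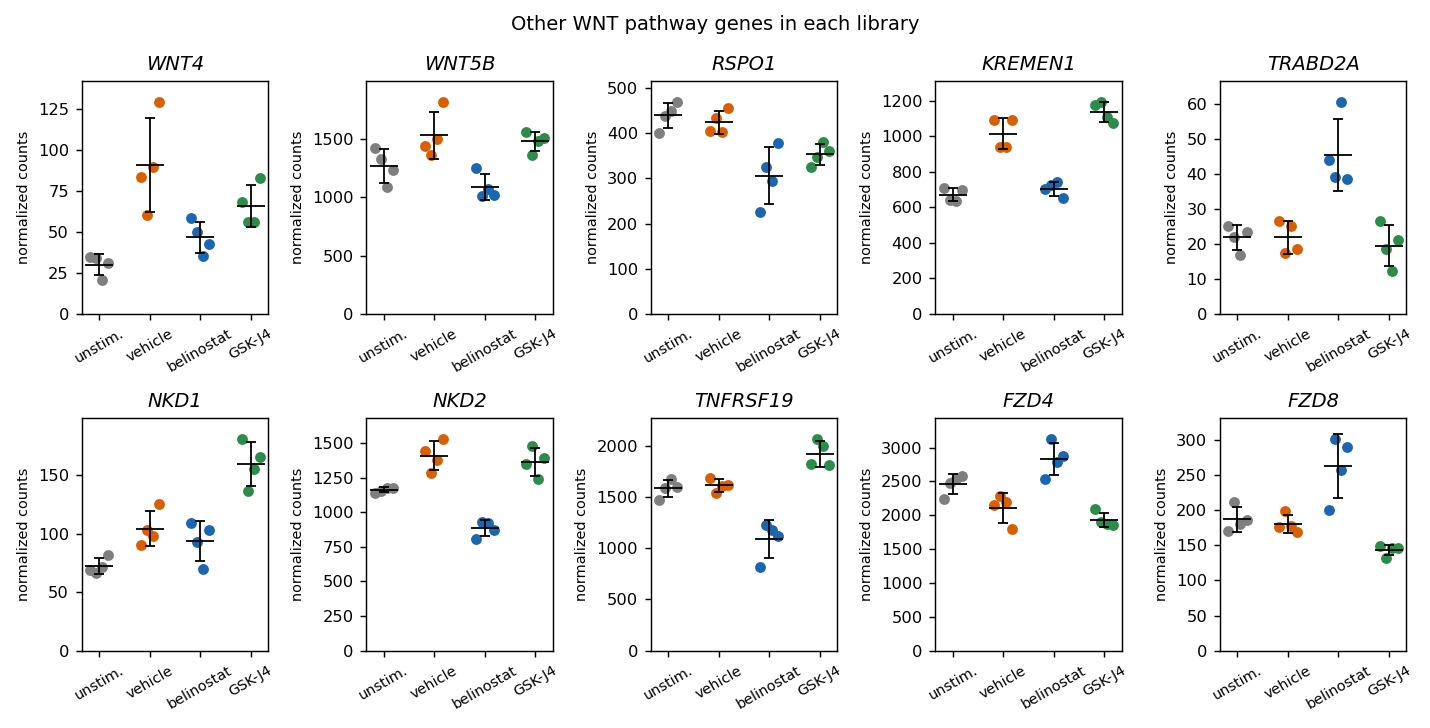
Normalized counts (vertical axis of each panel, from 0) of 10 other WNT pathway genes in each library (points), by group on the horizontal axis, with the mean and SD of each group as bars (n = 4). NKD2 and KREMEN1 are lower with belinostat than in vehicle in every library, TRABD2A is higher, and NKD1 is highest with GSK-J4.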

How the data were processed

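Bulk RNA-seq of 16 Ccd18-Co libraries was analysed. Per the study's methods and the submitters' processing notes, the authors ran FastQC 0.11.9 and MultiQC 1.14 and quantified reads with kallisto 0.48.0, and the notes name hg38. The transcriptome release is not given in the sources used here. What they deposited is a table of estimated counts for each gene symbol, not scaled to library size, in which 28% of values had decimals. Kallisto shares reads between transcripts with the same sequence, which can move counts between similar genes. Estimated counts were rounded to whole numbers.

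Groups came from the sample labels. The unstimulated columns are named none where the titles give DMSO, and they were matched by number. No column was left unused. The 10 members, the 78 other pathway genes and the marker lists were chosen with earlier results of these data known. APCDD1 was chosen from its belinostat values.

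DESeq2 1.42.0 (R 4.3.3) fitted all 16 libraries in 1 model, as the study's methods name that tool, with Wald tests of 6 comparisons. Genes with a Benjamini-Hochberg adjusted p under 0.05 over all genes tested were called. Pathway genes named are those called with a mean of at least 20 normalized counts, at most 8 per comparison by size of change, and others named (WLS, FZD6, PRICKLE2, FZD4 with belinostat against vehicle, the TCF/LEF genes and CTNNB1) were chosen after their values were seen. The code was tested on simulated data. Alternatives were edgeR 4.0.16 (quasi-likelihood), TMM size factors, a filter of at least 10 counts in 4 libraries, fits of the compared groups alone, and leaving out each library. Summed normalized counts of 6 epithelial markers were 2.875 to 21.96, of 5 leukocyte markers 31.07 to 252, of 4 endothelial markers 19.56 to 41.72, of 3 glial markers 0 to 9.709 and of 9 fibroblast markers 431600 to 574800. Gene positions are from GENCODE v44 on GRCh38, looked up by symbol, and promoters are from RefSeq on GRCh38.p14. Of the members, APCDD1 and WNT2B had estimated counts with decimals, more than 0.01 from whole, in all 16 libraries and AXIN2 in 8.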

Additional observations from a re-analysis of the deposited data

Results flagged for a closer look

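In groups of 4 libraries, 5 of 37 groups of the members had a highest or lowest library set apart from the others by more than Dixon's 95% critical value. Chance alone gives about 1 in 20 where values are normally distributed, which groups of counts near 0 are not. WNT2B in belinostat replicate 17 was low at 2720 normalized counts, with a gap of 0.919 of the group's range. SFRP1 in belinostat replicate 19 was high at 367.9 (0.839). DKK1 in vehicle replicate 14 was high at 41.2 (0.927). SFRP2 was 0.8877 in unstimulated replicate 3 and 4.791 in vehicle replicate 14 while the other libraries of each group were at 0 (1 in both), from 1 and 5 counts. A group with 1 library above 0 always has a gap of 1, so nothing is read from these SFRP2 flags.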

How the results depend on the processing

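The comparisons share libraries with one another, SFRP1 varied too much for differences under about 1 log2 unit to be seen, and RSPO3 and SFRP2 were too low to compare. No paired analysis was possible because the groups share no replicate numbers. TMM size factors and the filter on low counts kept the direction and call of all 86 results. The edgeR test kept 79 and lost 7 calls, and fits of the compared groups alone kept 81, lost 3 and gained 2. Leaving out 1 library at a time gave 688 values, of which 626 kept direction and call, 41 lost a call, 7 gained one and 14 turned sign. The alternatives for the other pathway genes were chosen after seeing the data.

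Left out 1 at a time, the number of members called was 2 to 2 for vehicle against unstimulated, 2 to 3 for belinostat against vehicle, 0 to 0 for GSK-J4 against vehicle, 2 to 3 between the compounds, 2 to 5 for belinostat against unstimulated and 3 to 3 for GSK-J4 against unstimulated. The belinostat ranges include APCDD1, which was chosen from its belinostat values, so nothing is read from its part in them. The range for vehicle against unstimulated includes APCDD1 too, and its choice used the same vehicle libraries. The shares of all genes called in the main fit are given above with each comparison. Those of the fits with 1 library left out are not given, so these ranges show only how stable the counts were. For the other pathway genes the ranges in the same order were 2 to 6, 9 to 15, 0 to 2, 13 to 22, 15 to 21 and 9 to 14. Calls of other pathway genes in vehicle against unstimulated fell from 5 to 3 with edgeR. In GSK-J4 against vehicle, 1 call became 0 with edgeR and 3 in the fit of these groups alone. The cause was not tested.

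The log2 fold changes that turned sign were not called in any of these fits. Leaving out 1 library at a time, SFRP1 in vehicle against unstimulated ranged from -0.82 to 0.0364, and was 0.02 and 0.0364 without vehicle replicates 14 and 15. WNT2B in belinostat against vehicle ranged from -0.1024 to 0.01759, the latter without belinostat replicate 17. In GSK-J4 against vehicle, APCDD1 ranged from -0.00073 (without GSK-J4 replicate 22) to 0.2252, WNT5A from -0.1563 to 0.01439 (without vehicle replicate 16), and SFRP1 from -0.05973 to 0.8091, with values of -0.03, -0.04538 and -0.05973 without vehicle replicates 14 and 15 and GSK-J4 replicate 22. DKK3 between the compounds ranged from -0.07245 to 0.0024, the latter without belinostat replicate 20. In GSK-J4 against unstimulated, SFRP1 ranged from -0.251 to 0.15, with 0.0072, 0.02, 0.15 and 0.14 without unstimulated replicates 1 and 4 and GSK-J4 replicates 23 and 24, and AXIN2 ranged from -0.08824 to 0.01154, the latter without GSK-J4 replicate 22.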

Other observations

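Both compound groups were also compared with unstimulated cells over the 78 other pathway genes. With belinostat, 51 were tested, of which 7 were called higher and 11 lower, against 10.3% of all genes tested. Without replicate 17 the calls numbered 21, with no share of all genes beside it, so nothing is read from that number. The secreted decoy FRZB was lower (log2 fold change -1.14, SE 0.28, DESeq2 adjusted p = 0.00141), as were the R-spondins RSPO2 (-0.99, DESeq2 adjusted p = 7.13e-05) and RSPO1 (-0.53, DESeq2 adjusted p = 0.000285), the ligand WNT9A (-0.91, DESeq2 adjusted p = 0.00112) and the polarity cadherin CELSR1 (-0.80, DESeq2 adjusted p = 2.24e-05). The receptor FZD6 was higher (0.50, DESeq2 adjusted p = 3.28e-13).

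With GSK-J4, 57 were tested, of which 7 were called higher and 7 lower, against 5.55% of all genes tested. NKD1 was higher (log2 fold change 1.15, SE 0.16, DESeq2 adjusted p = 2.51e-10), as were WNT4 (1.13, DESeq2 adjusted p = 0.000945) and KREMEN1 (0.76, DESeq2 adjusted p = 2.92e-23). The antagonist APCDD1L was called higher too, at 1.07 to 1.78 over the 12 alternative fits, and lost its call in 6 of them. FZD1 was called lower (-0.42 to -0.33) and kept its call in all 12. PRICKLE1 was called lower (-0.44 to -0.32) and lost its call in 6. RSPO2 fell from 816.1 ± 85 to 446.6 ± 50.4 normalized counts (SD, n = 4 each; -0.87, DESeq2 adjusted p = 0.00113) and CELSR1 was lower too (-0.69, DESeq2 adjusted p = 0.000583). RSPO2 was thus called lower than in unstimulated cells in both compound groups, and vehicle cells stood between at 533.8 ± 93.2 (SD, n = 4). Every vehicle library (406.6 to 629.5) already lay below every unstimulated one (715.1 to 923.2), though this difference was not called. Neither compound was called against vehicle for RSPO2.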
